A study of Homo sapiens with 6 samples.

Results

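The RNAs described here are 10 transcripts with known roles in the nucleus or in gene regulation: NEAT1, MALAT1, NORAD, OIP5-AS1, SRA1, FTX, JPX, RN7SK, RMRP and RPPH1. They were taken by name, 10 of 62700 gene records of GENCODE version 44 on GRCh38, and all 10 were found there. The annotation files 6 of them as lncRNA, SRA1 as protein-coding, RN7SK as snRNA and RMRP and RPPH1 as ribozymes. For each gene, every interval was collected whose summit, the position of highest signal named by the peak caller, lay between the gene's start and end, also where a second gene record covered the same place.

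The intervals come from RIP-seq, the sequencing of RNA that is pulled down with a protein, of DDX5 in RH30, an established alveolar rhabdomyosarcoma line positive for the PAX3-FOXO1 gene fusion. Nuclei were isolated, broken open and incubated with beads carrying an antibody against DDX5. The series held 6 samples, 3 immunoprecipitates and 3 INPUT samples without antibody, all of the same line with no other treatment. The protocol also names beads with IgG, of which no sample was analysed here. Only the 3 DDX5 immunoprecipitates had a list analysed here, so the results describe 1 line and 1 antibody, with no control group beside them, and a fold cannot be read as enrichment over INPUT. The series calls the samples biological replicates and does not say how their cultures were separated, so the spread given is that between these samples. Libraries were unstranded, so RNA from the opposite strands of a locus could not be told apart. Replicates 1, 2 and 3 held 23715, 23651 and 45832 intervals on the main chromosomes, with median fold enrichments over the caller's background of 2.66, 3.21 and 2.91. Read depth and RNA abundance were unknown. Of 10 genes listed as markers of the rhabdomyosarcoma line, among them MYOD1, MYOG and DES, 9 had a summit in every list. Of 5 markers of other cell types none did, PECAM1 coming nearest with 2 lists. Over all annotated gene records the share was 9.57%. TFAP2B was the rhabdomyosarcoma marker without a summit. Some markers are long, such as NOS1 at 244029 bases, so the shares are not matched for length and are no test of cell identity.

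DDX5 is a DEAD-box RNA helicase that works in splicing, microRNA processing and transcription. NEAT1 is the architectural RNA of paraspeckles and MALAT1 is retained in nuclear speckles. NORAD binds Pumilio proteins, and OIP5-AS1, also called Cyrano, is a conserved regulatory RNA that pairs with a microRNA. SRA1 gives both a protein and a non-coding coactivator RNA that is known to work with DDX5 in muscle cells. FTX and JPX lie in the X-inactivation centre. RN7SK, the 7SK RNA, holds the elongation factor P-TEFb in an inactive particle, and RMRP and RPPH1 are the RNA subunits of RNase MRP and RNase P.

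Intervals were found in 8 of the 10 genes. NORAD, SRA1, FTX, JPX and RN7SK had a summit in every list, NEAT1, OIP5-AS1 and RMRP in 2 lists, and MALAT1 and RPPH1 in none. Over all annotated gene records 9.57% had a summit in every list. The share was 3.92% among lncRNA genes and 5.53% among lncRNA genes of at least 5 kb, against 3 of the 6 members filed as lncRNA. Those 3 were NORAD, FTX and JPX, and every JPX interval was also an FTX interval, so 1 locus counts for 2 of them. FTX spans 353140 bases and JPX 126227, so the class of at least 5 kb does not match them in length. The members were also chosen with earlier results of these data known, so the shares are a description and no test. With summits in an exon of the canonical transcript, a reading chosen after the values were seen, only NORAD and RN7SK were left in every list. Replicate support of a place was rarer than replicate support of a gene. The member intervals formed 44 regions of overlapping intervals, of which 3 (6.82%) were found in every list, 14 in 2 lists and 27 in 1 list. Of the 44, 15 lay in NEAT1, 5 in OIP5-AS1 and 1 in RMRP. Each of these genes had no interval in 1 list, so none of their regions could be found in every list. Of all 60437 regions of the series, 13.6% were found in every list. Leaving out replicate 1, 2 or 3 and asking for the remaining pair gave 7, 8 and 8 member regions. The regions found in every list lay in NORAD, RN7SK and the SRA1 record. Such a region was held by 3 of the 5 members with a summit in every list. Among all gene records with a summit in every list 73.6% had such a region, and among lncRNA genes 74.9% did.

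The sequences below are examples of places found in more than 1 list, 1 each for RN7SK, RMRP, NORAD and NEAT1, read from GRCh38 and written 5′ to 3′ as the RNA with T for U. For RN7SK (chr6:52995638-52995861, plus strand) and RMRP (chr9:35657833-35657970, minus strand) they are the bases common to the intervals of each list that had one. Capitals mark the 13 bases from the lowest to the highest summit. For NORAD (chr20:36050157-36050402, minus strand) they are the bases common to all 3 lists, and capitals mark the Pumilio element TGTANATA. For NEAT1 (chr11:65437304-65437531, plus strand) they are the bases common to replicates 1 and 2, and capitals mark the stretch between their summits.
RN7SK: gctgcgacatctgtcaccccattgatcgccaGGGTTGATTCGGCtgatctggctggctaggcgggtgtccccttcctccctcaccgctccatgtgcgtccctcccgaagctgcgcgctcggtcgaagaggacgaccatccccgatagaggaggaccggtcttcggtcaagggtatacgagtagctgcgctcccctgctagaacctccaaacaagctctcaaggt
RMRP: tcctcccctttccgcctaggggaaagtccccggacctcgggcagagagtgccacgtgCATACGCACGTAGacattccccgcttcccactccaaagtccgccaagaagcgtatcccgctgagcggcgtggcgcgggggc
NORAD: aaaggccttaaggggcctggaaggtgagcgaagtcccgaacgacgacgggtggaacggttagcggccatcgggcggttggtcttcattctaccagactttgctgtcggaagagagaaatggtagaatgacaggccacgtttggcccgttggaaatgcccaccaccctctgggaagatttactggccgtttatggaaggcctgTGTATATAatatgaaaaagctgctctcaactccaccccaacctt
NEAT1: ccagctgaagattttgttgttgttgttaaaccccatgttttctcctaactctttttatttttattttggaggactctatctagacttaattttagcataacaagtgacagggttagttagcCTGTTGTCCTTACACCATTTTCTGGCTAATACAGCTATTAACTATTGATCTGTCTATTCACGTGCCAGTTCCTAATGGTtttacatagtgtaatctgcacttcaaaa

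Of the 10 RNAs, RN7SK had the highest mean fold enrichment at its best interval, and its intervals lay at the same place in every list. Its gene is a single exon of 328 bases (chromosome 6, 52995621 to 52995948, plus strand). Each list held 1 interval there, covering 73.2%, 68.9% and 89.9% of the RNA in replicates 1, 2 and 3. The top summits stood 57, 61 and 49 bases from the 5′ end, within 12 bases of each other, in the 5′ part of the RNA shown above. The fold enrichment was 4.14, 4.31 and 8.02, a mean of 5.49 ± 2.19 (SD, n = 3), and the −log10 q was 11.3, 10.1 and 37.6. Replicate 3 stood above the other lists in both values. Without replicate 3 the mean fold was 4.23. Ranked against the best intervals of all genes in the same list, RN7SK lay at percentiles 83.6, 68.2 and 97.01. RN7SK was the only member in every list with a fold enrichment of at least 4. The same bases are also annotated under the record 7SK, so RN7SK drops out when a summit must lie in exactly 1 gene record. The genome holds many 7SK-like copies: of 301 records named 7SK, RN7SK or RN7SKP, 9 had a summit in any list and 3 in every list, namely 7SK, RN7SK and RN7SKP80. How reads that fit several copies were placed is not given in the sources used here.

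RMRP had an interval in 2 lists, at one place. Its gene of 264 bases (chromosome 9, 35657754 to 35658017, minus strand) held no interval in replicate 1 and 1 interval each in replicates 2 and 3. The summits stood 117 and 105 bases from the 5′ end and the intervals covered 52.3% and 70.1% of the RNA. The fold enrichment was 2.57 and 3.54, with −log10 q of 3.49 and 13.1, and the percentiles of 14.8 and 49.2 put RMRP below the middle of the genes of both lists. Its pairs of fold and p occur in 26 and 14 intervals of those lists. RPPH1, the RNA of RNase P (chromosome 14, 20343075 to 20343407, minus strand, 333 bases), had no interval in the lists analysed. The nearest interval lay 1534 bases away, in replicate 3. A summit in every list was rare in this class: 0.0784% of 5102 annotated small structured RNA genes of at most 400 bases had one, and they were RN7SK, its second record 7SK, RN7SKP80 and SNORD108. None of 19 other short structured RNAs listed, among them RN7SL1, TERC, RNU1-1 and the vault and Y RNAs, had a summit in any list. Their genes run from 63 bases (RNU7-1) to 699 (SNORD3A), with RNU1-1 at 164 and RNY1 at 113. They are thus not matched in length to RN7SK and RMRP, and how well the libraries kept RNAs so short is unknown.

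**Figure D1:**
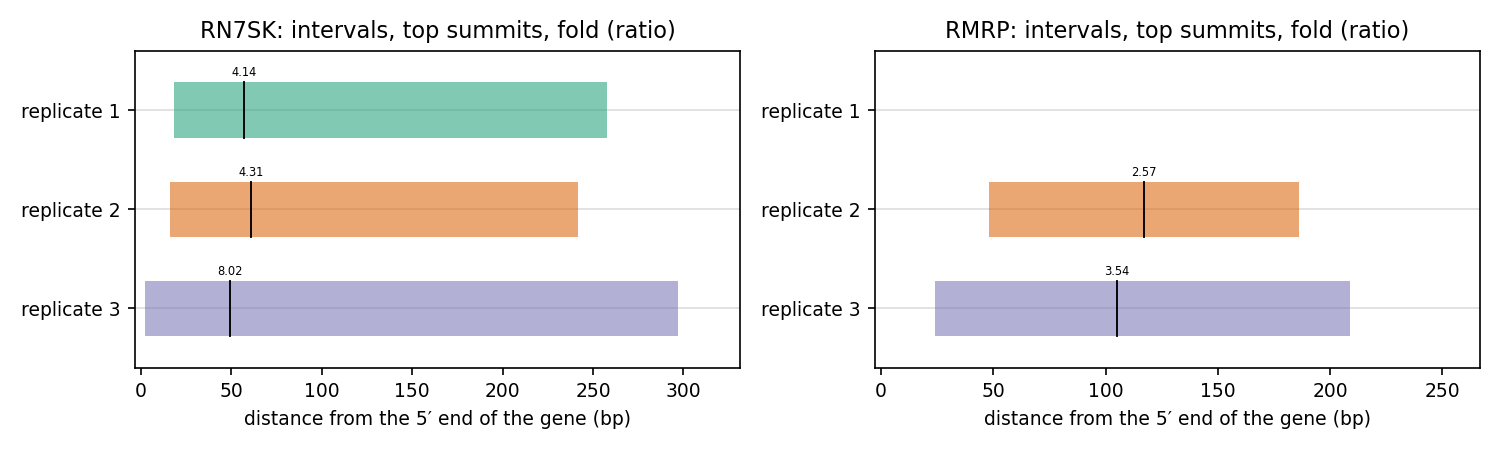
Intervals (boxes) and top summits (black lines) along RN7SK and RMRP, by distance from the 5′ end in bases and by replicate, with the fold enrichment (ratio) above each summit. The RN7SK summits stand at 57, 61 and 49 bases, and RMRP has no interval in replicate 1.

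NORAD carried intervals over much of its length. The gene is a single exon of 5401 bases (chromosome 20, 36045618 to 36051018, minus strand). It held 6, 3 and 7 intervals in replicates 1, 2 and 3, which covered 36.1%, 11.6% and 55.03% of the RNA. Replicate 2 was the lowest in both. The best interval of each list had a fold enrichment of 2.90, 2.41 and 3.06, with −log10 q of 11.4, 8.90 and 19.4, and stood 3395, 702 and 790 bases from the 5′ end. The best interval by −log10 q therefore lay near the 5′ end in replicates 2 and 3 and past the middle of the RNA in replicate 1. In replicate 2 it was nearly tied with an interval at base 4393, which had a fold of 2.36 and a −log10 q of 8.81. Folds within NORAD ranged from 1.68 to 2.90, 1.73 to 2.41 and 1.58 to 3.06, and its best interval lay at percentiles 48.3, 11.2 and 33.6 of the genes of each list. Of its 7 regions, 1 was found in every list, 5 in 2 lists and 1 in 1 list. The region found in every list (36049932 to 36050593) had top folds of 2.57, 2.41 and 3.06 in replicates 1, 2 and 3. Its top summits were spread over 326 bases, so the lists shared the place more than the exact summit. Of the 5 regions in 2 lists, 4 were shared by replicates 1 and 3, with summits 5 to 315 bases apart, and the remaining one by replicates 2 and 3, 21 bases apart. Near the 3′ end, replicates 1 and 3 had summits 5260 and 5265 bases from the 5′ end at folds of 1.68 and 1.58, the lowest of NORAD in either list.

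Pumilio elements were counted in NORAD because they are its known protein-binding sites. The RNA strand held 15 matches to TGTANATA, the first at base 819 and the last at base 4657. Intervals held 8, 2 and 11 of them in replicates 1, 2 and 3, or 53.3%, 13.3% and 73.3%, beside the 36.1%, 11.6% and 55.03% of the RNA that the intervals covered. The share of elements was thus the higher one in each list, by a small margin in replicate 2, whose 2 elements allow little comparison. The first element, in the sequence shown above, was the only one inside an interval of every list, and 3 lay in none. Within 50 bases of the top summit, on either strand, 1 of 6, 1 of 3 and 2 of 7 NORAD windows held a match, a mean of 26.2% ± 8.58 (SD, n = 3). Over all intervals the same windows of 101 bases held one in 1.82% ± 0.218 (SD, n = 3). NORAD windows lie in 1 transcript that is rich in these elements, so the share describes that RNA and marks no binding site of DDX5. NEAT1 held 6 such matches, 1 of them inside an interval of replicate 1, and MALAT1 held 0.

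**Figure D2:**
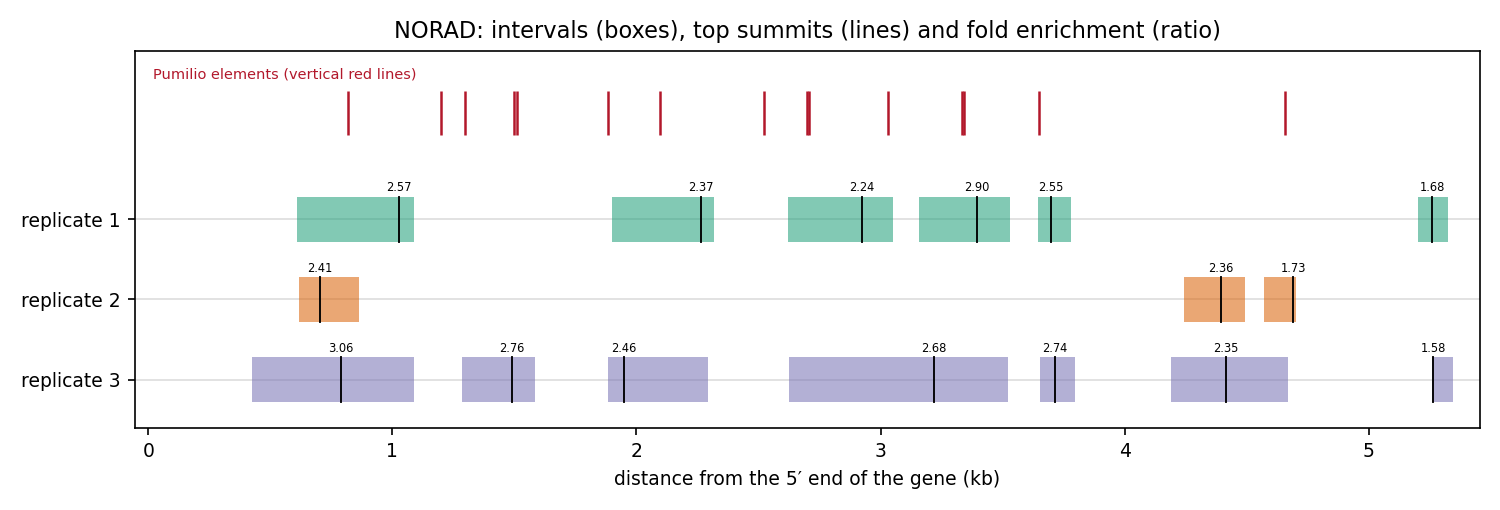
Intervals (boxes), top summits (black lines) and fold enrichment (ratio, above each summit) along NORAD by replicate, with distance from the 5′ end in kb; red lines mark the 15 Pumilio elements. The first element, at base 819, is the only one inside an interval of all 3 replicates.

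NEAT1 had the most intervals of any member and none in replicate 3. The gene spans 22767 bases (chromosome 11, 65422774 to 65445540, plus strand). It held 13, 6 and 0 intervals in replicates 1, 2 and 3, which covered 17.6%, 6.34% and 0% of it. The list of replicate 3 was the longest of the 3. Of 1055 gene records with at least 5 intervals in each of replicates 1 and 2, only NEAT1 (0.0948%) had no summit in replicate 3, a threshold chosen after the values were seen. More broadly, 12.8% of gene records with a summit in any list had more intervals in replicate 1 than in replicate 3, and among the members NEAT1 and OIP5-AS1 did. In replicate 3 the nearest intervals lay 9303 bases before NEAT1 and 90427 bases after it. Read depth at NEAT1 in that library is unknown, and the cause was not tested.

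The NEAT1 intervals lay almost all in sequence that belongs to the long form alone. GENCODE lists 8 short forms that end within the first 3740 bases, 16.4% of the gene, and a single-exon long form, the one that forms the scaffold of paraspeckles. Of the 19 intervals, 18 had their summit beyond those 3740 bases, and 1 lay within them, at base 2421 in replicate 2 with a fold of 1.72. The stretch beyond holds 19027 of the 22767 bases, so most summits would fall there by length alone. In replicate 2 it held 5 of 6. A preference for the long form was not tested. In replicate 1 the summits ran from base 7317 to base 22186, and in replicate 2 those beyond the short forms ran from base 8115 to base 21691. Replicate 1 reached its highest −log10 q, 13.4, at base 11559 with a fold of 4.39, and its highest fold, 4.54, at base 22186 near the 3′ end. The pair of fold and p at base 22186 occurs in 22 intervals of the replicate 1 list. Replicate 2 reached its highest −log10 q, 12.2, at base 9899 with a fold of 2.60. Against the other genes of its list the best interval stood at percentile 87.2 in replicate 1 and at 15.7 in replicate 2.

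Replicates 1 and 2 shared 4 of the 15 NEAT1 regions. Their summits were 96, 200, 24 and 78 bases apart, in order along the RNA. The shared region with the highest folds, 3.65 and 2.74, had its summits at bases 14730 and 14652, and its common sequence is shown above. At the shared place with the closest summits, bases 10576 and 10552, the folds were 2.38 and 1.67. The place with the highest −log10 q in replicate 1 had no interval in replicate 2. At the 3′ end, each list had an interval, at bases 22186 and 21691, and they did not overlap. The latter summit also lies in the microRNA gene MIR612. The 101-base windows around NEAT1 summits had a GC content of 38.7% ± 4.76 (SD, n = 2 lists), against 46.9% ± 1.05 (SD, n = 3) over all intervals, 43.2% ± 3.72 (SD, n = 3) in NORAD and 62.4% ± 0.99 (SD, n = 3) in RN7SK. The NEAT1 windows had 42.0% in replicate 1 and 35.3% in replicate 2. The genes themselves had a GC content of 44.1% (NEAT1) and 41.8% (NORAD), so the gap to all intervals reflects in part the gene.

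**Figure D3:**
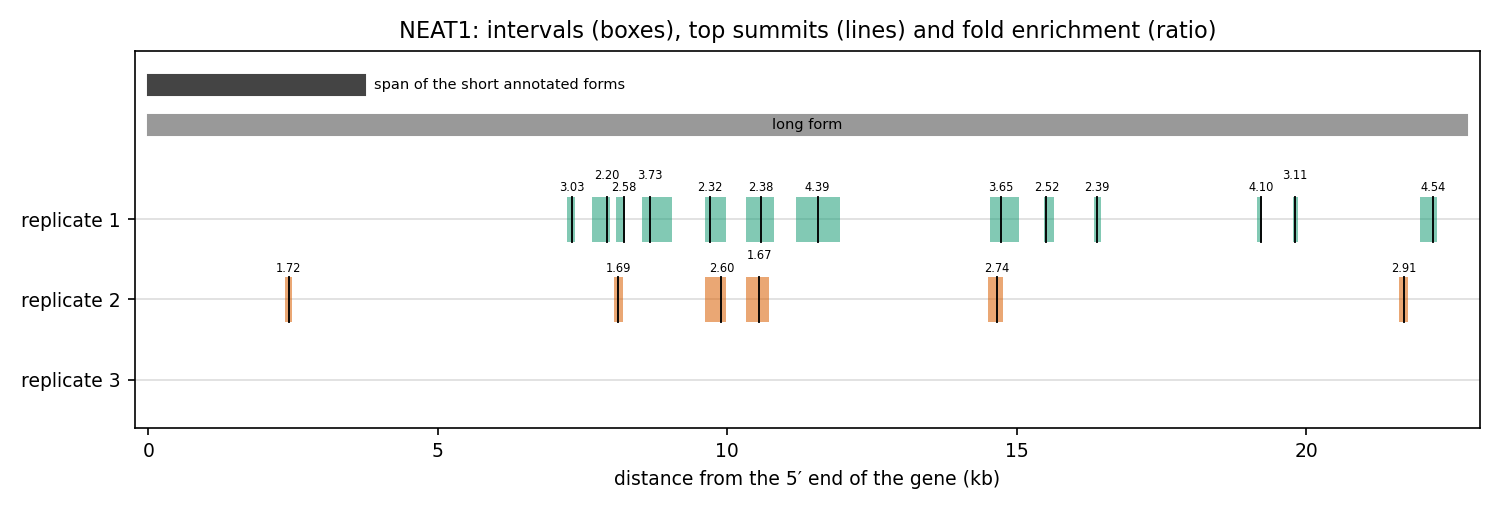
Intervals (boxes), top summits (black lines) and fold enrichment (ratio, above each summit) along NEAT1 by replicate, with distance from the 5′ end in kb; bars on top show the span of the short annotated forms and the long form. Of 19 intervals, 18 lie beyond the short forms, which span 16.4% of the gene, and replicate 3 has none.

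MALAT1, which starts 52100 bases after the end of NEAT1, had no interval in any list analysed. Its single-exon canonical transcript has 10434 bases (chromosome 11, 65497640 to 65508073, plus strand). The stretch free of intervals around it measured 93366, 159274 and 122495 bases in replicates 1, 2 and 3. The nearest interval after its end lay 30315, 95734 and 27894 bases away. MALAT1 is known as an abundant nuclear RNA in many cell types. Its level in these nuclei was not measured by the lists, and the absence of an interval says only that none was among those analysed.

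OIP5-AS1 had 4, 0 and 1 intervals in replicates 1, 2 and 3 (chromosome 15, 41283958 to 41322392, plus strand, 38435 bases). No place was shared. The best intervals had folds of 2.68 and 2.55, with −log10 q of 8.37 and 3.57, at bases 22153 and 18985 of the gene in replicates 1 and 3. All 5 summits lay in an exon of some annotated form, but none in one of the 6 exons of the canonical transcript OIP5-AS1-259. Few forms held them: of 72 annotated forms, 24 held the summit at base 14460 in an exon, 4 held the one at base 22153, and 1 held each of the other three. The same 5 places are introns of the overlapping record ENSG00000285920. Of these intervals, 4 came from replicate 1, and with the lists cut to equal length, only that replicate kept any.

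The SRA1 record had 3, 5 and 7 intervals in replicates 1, 2 and 3, and nearly all lay outside its canonical transcript. The record spans 20338 bases (chromosome 5, 140537340 to 140557677, minus strand), while SRA1-201 spans 140550068 to 140557473. Of 15 summits, 13 lay beyond its 3′ end, in a stretch that 1 of 6 annotated forms reaches and that is shared with ANKHD1 and EIF4EBP3 on the opposite strand. Of these, 5 lay in coding sequence of those genes, 6 in their other exons and 2 in introns. Of all 15, 4 lay in an exon of any SRA1 form. Because the libraries were unstranded, the RNA behind the 13 intervals cannot be assigned to a strand.

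The best SRA1 values were those of the neighbouring exons. They had a fold of 2.43, 6.25 and 3.95, with −log10 q of 5.52, 15.2 and 9.83, and lay in exons of ANKHD1 in replicate 1 and of EIF4EBP3, a translation repressor gene, in replicates 2 and 3. Their pairs of fold and p occur in 11, 52 and 35 intervals of the lists of replicates 1, 2 and 3. The only region of the record found in every list (140549250 to 140549519) lay in the last exon of EIF4EBP3, with folds of 2.99, 2.83 and 3.95 and summits within 105 bases. In SRA1-201 itself replicate 3 alone had intervals, both in its last exon, 749 and 1166 bases into the spliced transcript of 1328 bases. Their folds were 1.97 and 3.59, with −log10 q of 1.33 and 4.51. The pair of fold and p of the latter occurs in 709 intervals of that list. Replicates 1 and 2 had none there.

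**Figure D4:**
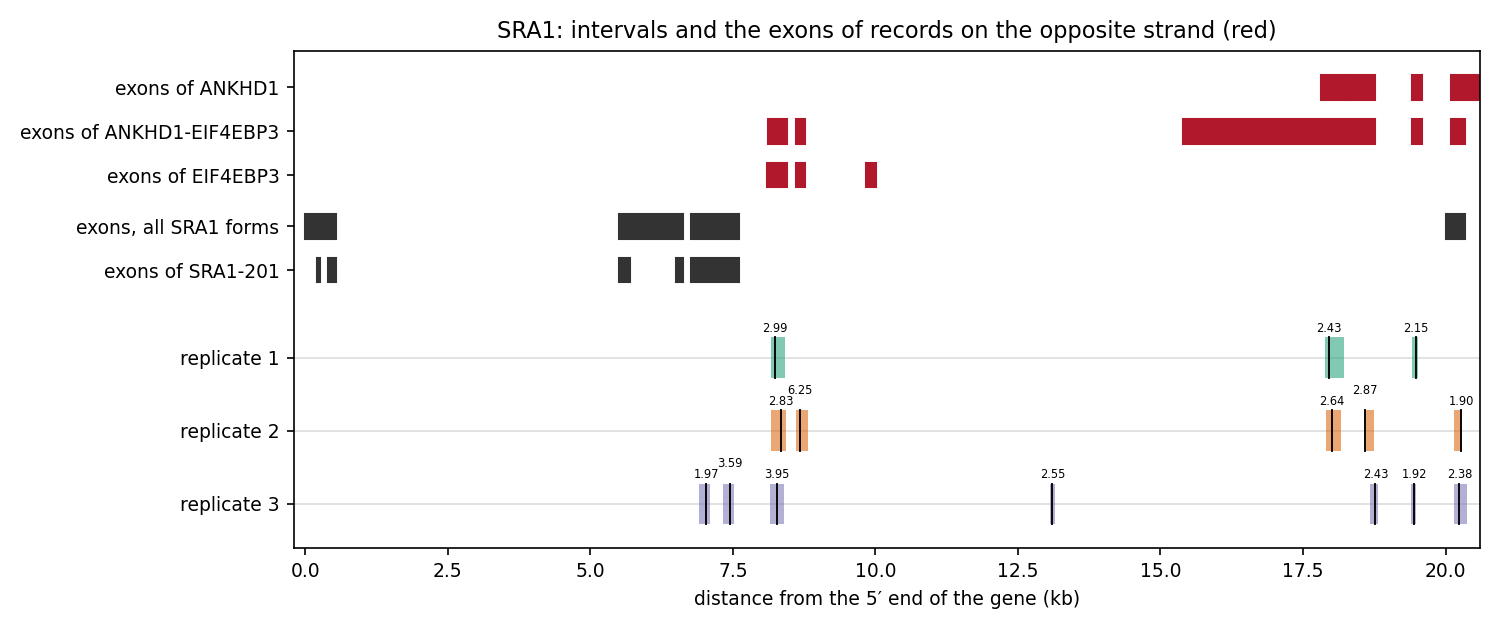
Intervals (boxes), top summits (black lines) and fold enrichment (ratio, above each summit) in the SRA1 record by replicate, with distance from its 5′ end in kb; black bars are exons of SRA1 and red bars exons of ANKHD1, ANKHD1-EIF4EBP3 and EIF4EBP3 on the opposite strand. Of 15 summits, 13 lie beyond the 3′ end of SRA1-201, among the exons of the opposite strand.

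FTX and JPX, neighbours that overlap on opposite strands of the X chromosome, shared intervals with each other but not between replicates. FTX covers 353140 bases (73940435 to 74293574, minus strand) and JPX 126227 bases (73944182 to 74070408, plus strand). JPX had 1 interval in each list and each of them also lay in FTX. Their summits were at 74009142 in replicate 1, 73994097 in replicate 2 and 73956179 in replicate 3, so no 2 lists had the same place. The folds were 2.00, 2.99 and 3.24 and the −log10 q 1.46, 4.03 and 4.51. The replicate 1 summit lay in an exon of 1 of 85 annotated JPX forms and of 4 of 79 FTX forms, and the others lay in introns of both genes.

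FTX had 3 more intervals, all in replicate 2 and all intronic. The strongest by −log10 q, 6.83 with a fold of 2.11, had its summit 36330 bases from the 5′ end of FTX. No interval lay within 29641 bases of the microRNAs that FTX hosts, which are MIR545, MIR374A, MIR374B, MIR374C and MIR421. A summit of each list in these genes therefore did not stand for a shared place. Per 10 kb of gene body, FTX and JPX had the lowest mean number of intervals of the members that had any, 0.0566 and 0.0792, against 2.78 for NEAT1, 9.87 for NORAD and 30.5 for RN7SK. The RN7SK value follows from 1 interval per list in a gene of 328 bases. FTX and JPX are mostly intron, with 42249 and 22568 exonic bases, while NEAT1, NORAD and RN7SK are exonic throughout.

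**Figure D5:**
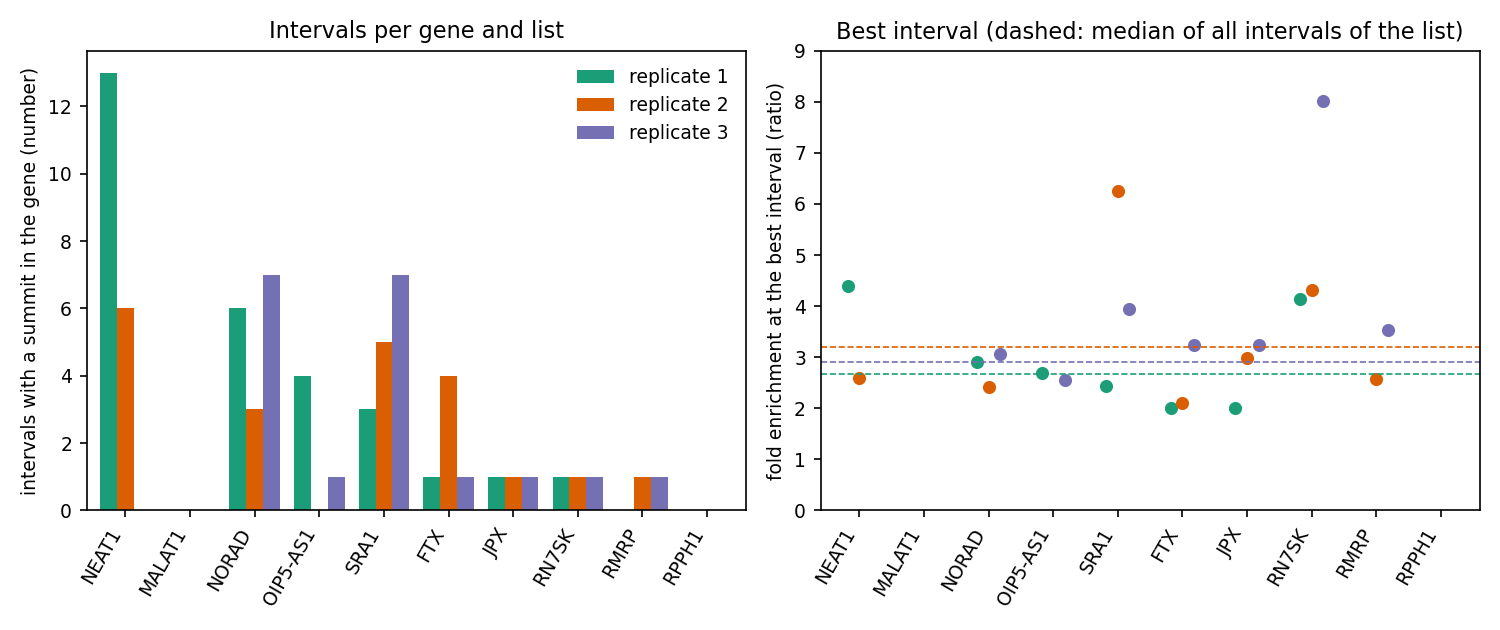
Left, number of intervals with a summit in each gene (bars) by replicate; right, fold enrichment (ratio) at the best interval of each gene (points), with the median of all intervals of each list as dashed lines. NEAT1 reaches 13 intervals in replicate 1 and 0 in replicate 3, and RN7SK lies above the dashed lines in all 3 replicates.

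Set beside each other by the mean percentile of their best fold, the members in every list ran from RN7SK at 82.95 ± 14.4, through SRA1 at 60.2 ± 32.5, NORAD at 31.02 ± 18.7 and JPX at 25.8 ± 14.8, to FTX at 18.3 ± 18.6 (SD, n = 3). No neighbours in this order differed by more than the larger of their SDs. The SRA1 value rests on exons of ANKHD1 and EIF4EBP3 on the opposite strand, where no SRA1 form has an exon. Among the 740 lncRNA genes with a summit in every list, those whose 3 percentiles lay nearest to RN7SK were USP2-AS1 and SHROOM3-AS1, at distances of 3.77 and 6.44 percentile points. ENSG00000287086 and ENSG00000224645 were nearest to NORAD (8.01 and 8.21), LINC01592 and ENSG00000278419 to SRA1 (5.72 and 6.99), ENSG00000260934 and ENSG00000288605 to FTX (4.97 and 5.93), and ENSG00000254662 and ENSG00000234162 to JPX (6.75 and 7.63). With 3 lists, such nearness is a description alone.

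Together the members held 28, 20 and 18 intervals in replicates 1, 2 and 3, or 0.118%, 0.0846% and 0.0393% of each list. Their median fold was 2.56, 2.58 and 2.62, below the list medians of 2.66, 3.21 and 2.91. Their top summits lay in an exon of some gene in 100%, 80.0% and 83.3% of cases, against 84.2%, 61.9% and 80.6% of all other intervals of the same lists. The difference of 12.2 ± 8.27 percentage points (SD, n = 3) is favoured by the choice of members, since their summits lie in genes and some of the other summits do not. NEAT1, NORAD, RN7SK and RMRP are also exonic over their whole length, so a summit in them could only be exonic. That favours the members in the test and in the comparison within genes that follows, so neither shows a preference for exons. An exact two-sided permutation test over the signs of the 3 lists gave p = 0.25, and no lower p was possible. Against the other intervals with a summit in a gene, of which 87.6%, 65.4% and 83.2% were exonic, the difference was 12.4, 14.6 and 0.166 points, a mean of 9.03 ± 7.76 (SD, n = 3). Counting only exons of the member itself, and not those of ANKHD1, EIF4EBP3 or other overlapping genes, the members' share was 89.3%, 60% and 72.2%. Only the members were recounted in that way, and for the other intervals in genes an exon of any gene still counted. The 2 counts are therefore unlike, and which side was higher by the stricter count was not tested. Intervals in regions found in every list made up 10.7%, 15.0% and 16.7% of the member intervals and 40.4%, 39.01% and 19.2% of the others. NEAT1, absent from replicate 3, held 13 of the 28 member intervals of replicate 1 and 6 of the 20 of replicate 2. None of those could count, so the low member shares rest in part on that gene. None of the 66 member windows of 101 bases held a G-quadruplex pattern on either strand (4 runs of 3 or more G with loops of 1 to 7 bases), which occurred in 1.41% ± 0.123 of all windows (SD, n = 3). At so low a share few such windows would be expected among 66, so their absence shows no depletion.

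Other regulatory lncRNAs also ranged from a summit in every list to none. Of 28 listed, 9 had a summit in every list, 2 in 2 lists, 3 in 1 list and 14 in none, beside the 3.92% of all lncRNA genes with a summit in every list. The 28 were chosen with earlier results of these data known, so these shares are a description and no test. Among the 9 with a summit in every list, the highest by mean percentile were CYTOR, with a best fold of 5.22 ± 0.928, TTN-AS1 at 5.03 ± 0.864, KCNQ1OT1, the imprinted antisense RNA of the KCNQ1 locus, at 3.84 ± 0.328 and MEG8 at 3.34 ± 1.54 (SD, n = 3). Each had at least 1 region found in every list. TTN-AS1 lies opposite the titin gene, so its 14, 32 and 197 intervals cannot be assigned to a strand. The same holds for the 5, 11 and 14 intervals of KCNQ1OT1, which is antisense to KCNQ1. These 4 genes are long, from 102696 bases for KCNQ1OT1 to 258781 for TTN-AS1, and the share of all lncRNA genes is not matched for length. H19, GAS5, MIAT and HOTAIR had no interval in the lists analysed.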

How the data were processed

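DDX5 immunoprecipitates of RH30 nuclei were deposited by the authors as 1 peak list per replicate. Per the submitters' processing notes, the build was GRCh38 and the tools were MACS2 2.2.7.1, SAMtools 1.10, STAR 2.6.1d, cutadapt 1.11, FastQC 0.11.8 and bcl2fastq 2.20. Parameters, the control of the peak calls and the handling of reads with several matches are not given in the sources used here. The fold enrichment of a summit is the authors' ratio over the caller's background. The p-value and q-value are on the −log10 scale in the deposited lists. The deposited score follows the q-value and was not used. No INPUT list was analysed here.

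Intervals on chromosomes 1 to 22, X, Y and MT were kept, and none ran past its chromosome's end. Summits sharing an interval were counted once, at the summit with the highest −log10 q in the gene, as annotated by GENCODE version 44. Intervals sharing at least 1 base were merged into regions. Percentiles rank a gene's best fold among all genes with a summit in that list. Many intervals share a background value: 53.7%, 61.0% and 68.0% of each list, and 42.6% ± 7.50 (SD, n = 3) of member intervals, carried a pair of fold and p found in 10 or more intervals. Depth is unknown, so no counting interval is given. The text names all members, the 2 lncRNA genes nearest to each member in every list, and up to 4 genes of each other list; genes named otherwise were chosen after their values were seen. Members and lists were chosen with earlier results of these data known. Alternatives covered stricter thresholds, equal list lengths, exonic or unambiguous summits, other definitions of overlap, and each replicate left out. Scripts (Python 3.11.15, pandas 2.3.3) were tested on simulated data.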

Additional observations from a re-analysis of the deposited data

How the results depend on the processing

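The number of members with a summit in every list, 5, was 3 with q under 1e-05 and with equal list lengths (NORAD, RN7SK and SRA1 in both), 1 with a fold of at least 4 (RN7SK), 2 with summits in an exon of the gene or of its canonical transcript (NORAD and RN7SK) and 1 with summits in exactly 1 gene record (NORAD, since the bases of RN7SK carry a second record). It was 5 with any overlap and 6 without replicate 1, 2 or 3. The canonical-transcript alternative and the exonic comparison within genes were chosen after the data were seen. Regions found in every list, 3, fell to 1 with a fold of at least 4, with summits in exactly 1 gene record and with summits within 100 bp. They were 2 or 3 under the other alternatives with all lists, and 7 to 8 without 1 replicate, when only 2 lists had to share a place. Intervals per list, 22 ± 5.29 (SD, n = 3), were 11 with q under 1e-05, 2.33 with a fold of at least 4, 13.3 with summits in exactly 1 gene record, 14 in canonical exons and 33.7 when each summit row was counted; the remaining alternatives gave 16.7 to 24. The exonic difference of 12.2 points lay between 9.25 and 33.8 points in the 8 alternatives that kept intergenic intervals among the others, where its direction is favoured by construction, and was 9.03 against other intervals in genes. The latter is favoured too, because NEAT1, NORAD, RN7SK and RMRP have no bases outside exons. Of 76 values of a member's best fold under an alternative, 73 moved by no more than 1 SD. The others were SRA1 with a fold of at least 4 (6.25) or exonic summits (2.14) and JPX with exonic summits (2.00). That count is no measure of robustness. Leaving out 1 of the 2 or 3 lists behind a mean cannot move it by 1 SD of the same values. Many other alternatives kept the same best intervals, with NORAD staying at 2.79 in several. No paired analysis was possible because only the immunoprecipitates had lists. Unknown depth limits every absence, MALAT1, RPPH1 and NEAT1 in replicate 3 among them.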
